A study of Mus musculus with 4 samples.

Results

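The genes described here are 10 genes of the fat cell: the transcription factors of adipocyte differentiation Klf15, Cebpa, Cebpb, Ebf1 and Ebf2, the secreted products Lep, Adipoq and Lpl, and the lipid droplet proteins Cidec and Plin1. Every BCL6 peak whose nearest annotated promoter, as the authors name it, belongs to one of these genes was taken, at any distance. That gave 3 of the 1785 peaks of the inguinal list and 6 of the 3956 peaks of the perigonadal list, 9 of 5741 in all. Of the 10 genes, 6 had a peak in at least 1 depot, and Cebpa, Ebf2, Adipoq and Plin1 had none. Genome-wide, calls in at least 1 depot were not counted, so the 6 of 10 cannot be read as high or low.

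The peaks come from chromatin immunoprecipitation and sequencing of BCL6 in adipocyte nuclei of mice on the C57BL/6 background. All samples carried Adipoq-Cre and the tag Sun1-sfGFP-myc. Cre under control of the adiponectin gene puts the tagged nuclear envelope protein Sun1 into adipocytes, whose nuclei were then captured with beads against myc. Each depot, inguinal adipose and perigonadal adipose, had 1 library precipitated with guinea pig antibody against mouse Bcl6 and 1 input library without antibody, and the input libraries were not analysed here. The age and sex of the mice and the number of animals behind a library are not given in the sources used here. With 1 BCL6 library per depot there are no replicates, so no difference between depots could be tested and no p-value is given.

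BCL6 is a zinc finger repressor that recruits corepressor complexes to DNA and is best known from germinal centre B cells. White adipocytes form when C/EBPβ, an early factor of the programme, leads to the expression of C/EBPα and PPARγ, which hold the mature state and switch on the genes of lipid storage and of the adipokines. EBF1, EBF2 and KLF15 act in the same programme. The mature cell coats its lipid droplet with perilipin 1 and CIDEC, takes up fatty acids freed by lipoprotein lipase, and secretes leptin and adiponectin.

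At least 1 peak was assigned to 3 of the 10 genes in inguinal fat (Klf15, Lep and Cidec) and to 5 of the 10 in perigonadal fat (Klf15, Cebpb, Ebf1, Lep and Lpl). Over all 21887 protein-coding genes, an inguinal peak at any distance was assigned to 6.15% and a perigonadal peak to 12.3%. Klf15 was the single gene of the 10 with a peak shared between the depots, a property of 1.87% of all protein-coding genes. The genes were picked with earlier results of these lists known, so the counts describe them and do not set them apart from other genes. Long genes had peaks more often: among the longest 10% of protein-coding genes, those of at least 108.5 kb, 16.9% had an inguinal and 33.4% a perigonadal peak. Of the 10 genes, Ebf1 with 390.0 kb and Ebf2 with 197.7 kb belong to these long genes, and the other 8 range from 1.52 kb for Cebpb to 30.8 kb for Klf15.

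**Figure D1:**
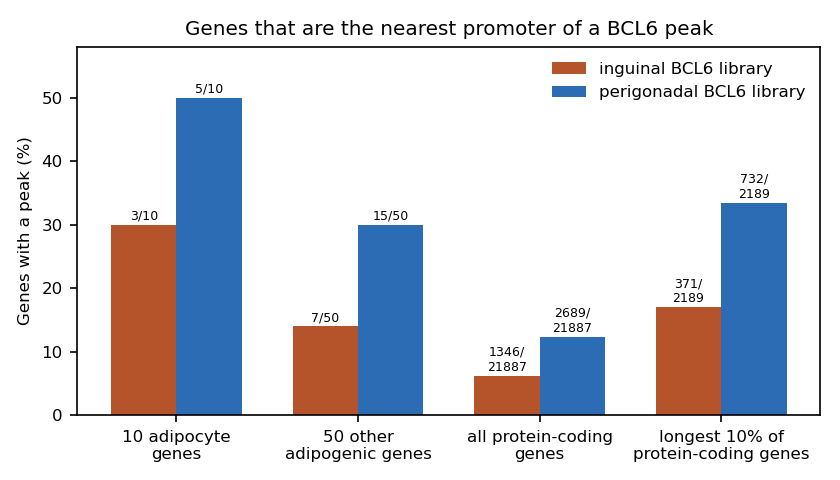
Share of genes, in percent, that are the nearest promoter of at least 1 BCL6 peak at any distance, with the inguinal library in brown on the left and the perigonadal library in blue on the right of each pair; numbers on the bars are genes with a peak over genes counted. The 10 genes stand at 3 of 10 and 5 of 10, against 6.15% and 12.3% of all protein-coding genes and 16.9% and 33.4% of the longest 10%.

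Most of the 9 peaks were low. The peak scores are the authors' values, and within a list all scores step by the same amount. That amount, 0.752 for inguinal and 0.882 for perigonadal peaks, is read here as 1 sequenced tag. Member peaks had 10, 12 and 19 tags in inguinal fat, with a median score of 9.03, the same as the median of the whole list. In perigonadal fat they had 9 to 17 tags with a median score of 8.82, again that of the whole list. Of the 9 peaks, 7 rested on 12 tags or fewer. Klf15 alone had more, in each depot, as did 41.3% of all inguinal and 24.0% of all perigonadal peaks. Peaks at the bottom of the lists have 9 tags in inguinal and 6 tags in perigonadal fat. Counting peaks of more than 12 tags alone, 1 of the 10 genes had a peak in each depot, against 2.63% of all protein-coding genes in inguinal and 3.29% in perigonadal fat. With the perigonadal list held to its 1785 tallest peaks, the length of the inguinal one, 2 of the 10 genes had a perigonadal peak, against 6.00%.

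**Figure D2:**
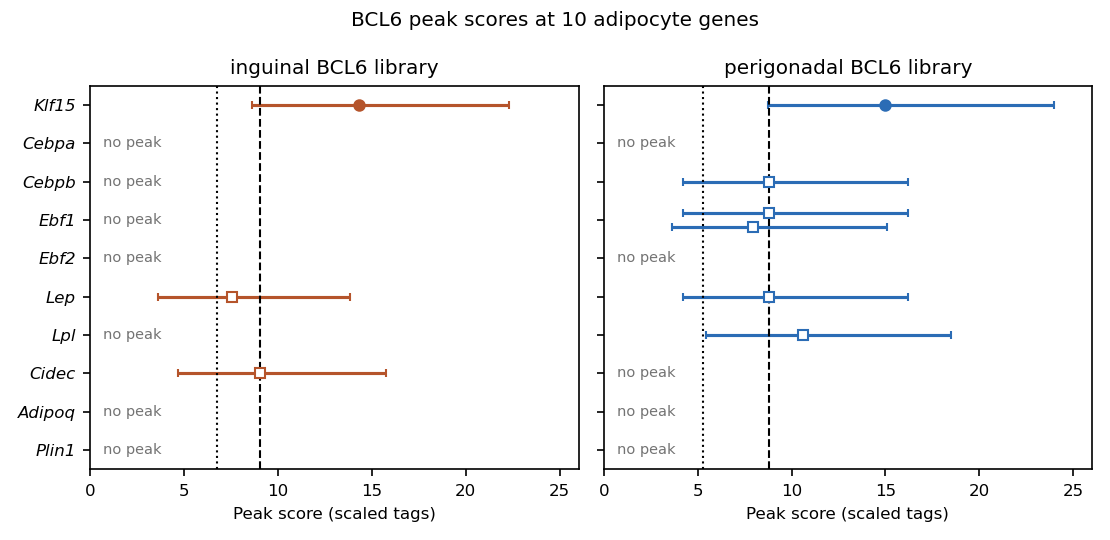
Scores of the peaks assigned to each of the 10 genes in the inguinal library (left, brown) and the perigonadal library (right, blue); bars are exact Poisson 95% intervals of the tags, filled circles are peaks shared between the depots and open squares are peaks without a partner. The dotted line is the lowest and the dashed line the median score of the whole list; Klf15, at 14.3 and 15, is the tallest in each panel, and every interval, that of Klf15 included, spans the median.

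Among the transcription factors, Klf15 had the tallest peak and the only shared one. Klf15 encodes a Krüppel-like factor that is induced late in adipocyte differentiation and acts on amino acid and glucose metabolism. The inguinal peak at chr6:90471304-90471506 (mm10) scored 14.3 from 19 tags, with a Poisson 95% interval of 8.60 to 22.3 for the score. The perigonadal peak at chr6:90471277-90471461 scored 15 from 17 tags, with an interval of 8.73 to 24.0. Both lie in intron 2 of 2, 8.78 and 8.74 kb downstream of the authors' promoter, and their centres are 36 bp apart with 158 bp in common. They ranked 327 of 1785 and 480 of 3956, and 80.1% of inguinal and 86.5% of perigonadal peaks scored lower, though the counting intervals of both peaks reach down to the list medians. The gene is 30.8 kb long, and no other peak of either list lay within 200 kb of it.

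The shared call at Klf15 can be read against how often peaks of its height were shared. Of all peaks of 16 to 20 tags, 66.5% of 191 inguinal and 40.4% of 270 perigonadal peaks overlapped a peak of the other depot. At the height of the remaining member peaks sharing was rare: 13.1% and 9.88% for 11 to 15 tags, and 4.13% and 2.09% for 6 to 10 tags. The lack of a partner at the 7 other peaks is thus the common case for peaks of that height, and an uncalled peak is no measurement of absent binding.

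**Figure D3:**
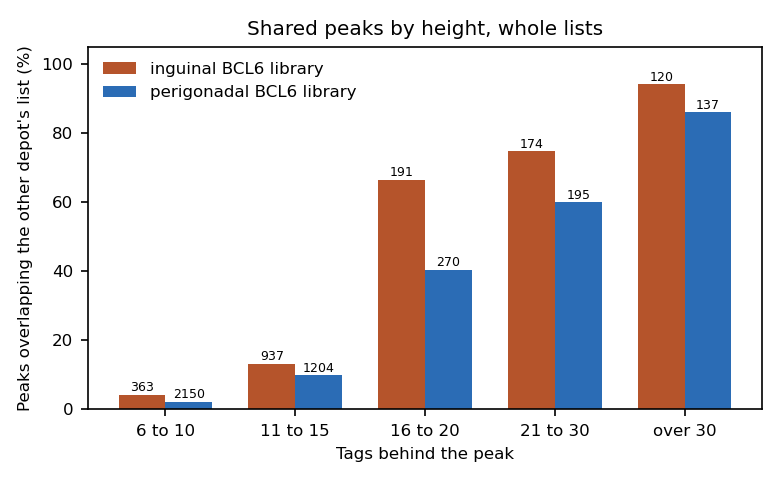
Share of peaks, in percent, that overlap a peak of the other depot by at least 1 bp, by the number of tags behind the peak, over the whole inguinal (brown, left of each pair) and perigonadal (blue, right) lists; numbers on the bars are peaks in the class. The share climbs with height: Klf15 lies in the class of 16 to 20 tags, where 66.5% and 40.4% of peaks were shared, and the other member peaks lie in the lower classes.

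The C/EBP genes differed in what lay near them. Cebpb, which encodes the early factor C/EBPβ, had no inguinal peak and 1 perigonadal peak at chr2:167685904-167686088, 2.92 kb upstream of its promoter. It scored 8.82 from 10 tags (interval 4.23 to 16.2), a height that 35.3% of the perigonadal list shares. A far taller site lay on the other side of the gene, 134.6 kb from the start of Cebpb, and was called in both depots. It scored 42.1 in inguinal fat (interval 31.8 to 54.7, rank 20, chr2:167823448-167823650) and 68.8 in perigonadal fat (54.3 to 85.8, rank 11). The authors assign it to Ptpn1, which encodes a phosphatase that dephosphorylates the insulin receptor and whose promoter is 108.8 kb away. It is therefore not among the 9 peaks, and the lists do not show which gene, if any, it acts on.

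Cebpa, which encodes C/EBPα of the mature adipocyte, had no peak in either list. The nearest perigonadal peak was 67.9 kb from the gene in intron 1 of Slc7a10, an amino acid transporter gene of white adipocytes, with a score of 8.82. A further perigonadal peak of 8.82 lay 97.8 kb away on the other side and is assigned to Cebpg, another C/EBP gene. The nearest inguinal peak, with a score of 10.5, was 132.2 kb away and is assigned to Lrp3. The Slc7a10 and Lrp3 peaks lie in annotated repeats. None of these 3 peaks was shared.

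The EBF genes, whose products bind DNA at early B cell factor sites and help to establish the adipocyte programme, had peaks at Ebf1 alone, in perigonadal fat. A peak at chr11:44666741-44666925 scored 8.82 from 10 tags and one at chr11:44730583-44730767 scored 7.93 from 9 tags. They lie 48.7 and 112.6 kb downstream of the promoter, both in intron 6 of 15. Ebf1 is longer than 98.3% of protein-coding genes. It is the only one of the 10 genes with more than 1 peak in a list, and a link with its length was not tested. The nearest inguinal peak was 880.5 kb away from the gene. Ebf2, which marks brown and beige adipocytes and their precursors, had no peak, and the nearest ones were 120.7 kb away for inguinal and 170.4 kb away for perigonadal fat.

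Of the secreted products, Lep had a peak in each depot, at different positions. Lep encodes leptin, the adipocyte hormone that signals the size of the fat stores to the brain. The inguinal peak at chr6:29059696-29059898 is the only one of the 9 that the authors annotate to a promoter, 0.424 kb upstream of the start site. It scored 7.52 from 10 tags (interval 3.61 to 13.8), and 3.19% of the inguinal list scored lower and 17.1% the same. The perigonadal peak at chr6:29070501-29070685 lies in intron 2 of 2, 10.4 kb downstream of the start site, and scored 8.82 from 10 tags (4.23 to 16.2). The centres are 10.8 kb apart, so the gene was called in both lists without a shared site.

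The RefSeq promoter window of Lep (GRCm38.p6) starts 72 bases downstream of the inguinal peak. Its 250 bases up to the start site, chr6:29059971-29060220 on the plus strand, are shown as the sequence at hand nearest to the peak. They contain no base of the peak, so a match in them is not a feature of the BCL6 site. Capitals mark the only match to any of the 5 patterns searched, TTGCGNAA, a C/EBP-type sequence whose first base is 55 bp before the start site. C/EBPα is known to activate the leptin promoter. The same pattern occurs on either strand in 0.959% of 21263 promoter windows of protein-coding genes.
Lep: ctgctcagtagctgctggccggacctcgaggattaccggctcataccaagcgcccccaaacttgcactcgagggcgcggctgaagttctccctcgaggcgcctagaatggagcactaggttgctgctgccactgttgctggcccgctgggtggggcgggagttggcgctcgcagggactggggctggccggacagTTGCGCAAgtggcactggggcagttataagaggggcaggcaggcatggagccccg

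Lpl encodes lipoprotein lipase, which adipocytes secrete to release fatty acids from circulating triglyceride. It had a perigonadal peak at chr8:68886856-68887040 in intron 1 of 9, 6.39 kb downstream of the promoter. The peak scored 10.6 from 12 tags (interval 5.47 to 18.5), and 68.1% of the perigonadal list scored lower. In inguinal fat the nearest peak was 90.6 kb from the gene, with a score of 7.52 from 10 tags, and is assigned to Atp6v1b2. A second perigonadal peak, 61.2 kb from Lpl on its other side, scored 9.70 and is assigned to Ints10.

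Adipoq, the gene of adiponectin and the one whose regulatory sequence drives the Cre in these mice, had no peak in either list. The nearest perigonadal peak was 101.0 kb away, scored 8.82, lies in an annotated repeat and is assigned to Kng1. The nearest inguinal peak was 854.3 kb away and is assigned to Bcl6 itself, with a score of 10.5. Plin1, the gene of the droplet coat protein that gates lipolysis, was without a peak within 200 kb in either depot. Its nearest peaks lay 255.1 kb away in the inguinal and 282.7 kb away in the perigonadal list.

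Cidec encodes a droplet protein that drives the growth of the large lipid droplet of white adipocytes. It had an inguinal peak at chr6:113434879-113435081 that scored 9.03 from 12 tags (interval 4.66 to 15.8), and 46.9% of the inguinal list scored lower. The authors place it in intron 1 of 5, 0.775 kb downstream of their promoter. RefSeq gives Cidec a second start site inside the gene at chr6:113434764 on the minus strand, and the peak's centre is 216 bp upstream of that site. The promoter window of the second site contains 136 bases of the peak, chr6:113434879-113435014, printed here on the minus strand because they are the only part of a member peak for which sequence was at hand. None of the 5 patterns matched in it, so no base is in capitals.
Cidec: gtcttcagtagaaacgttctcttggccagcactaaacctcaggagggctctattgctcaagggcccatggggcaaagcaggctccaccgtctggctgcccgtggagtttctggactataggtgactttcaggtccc

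A second inguinal peak of the same height, 9.03 from 12 tags, lay 6.77 kb from Cidec on the promoter of Jagn1, which encodes a protein of the endoplasmic reticulum. In perigonadal fat no peak was assigned to Cidec, and the nearest was 38.5 kb away, with a score of 10.6 and assigned to Ttll3. Counting every peak inside a gene or within 50 kb of its ends, whatever gene the authors name, Cidec joined the perigonadal genes, which made 6 of 10, while the inguinal genes stayed at 3 of 10. Over all protein-coding genes that wider rule gave 12.1% for inguinal and 24.9% for perigonadal fat.

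**Figure D4:**
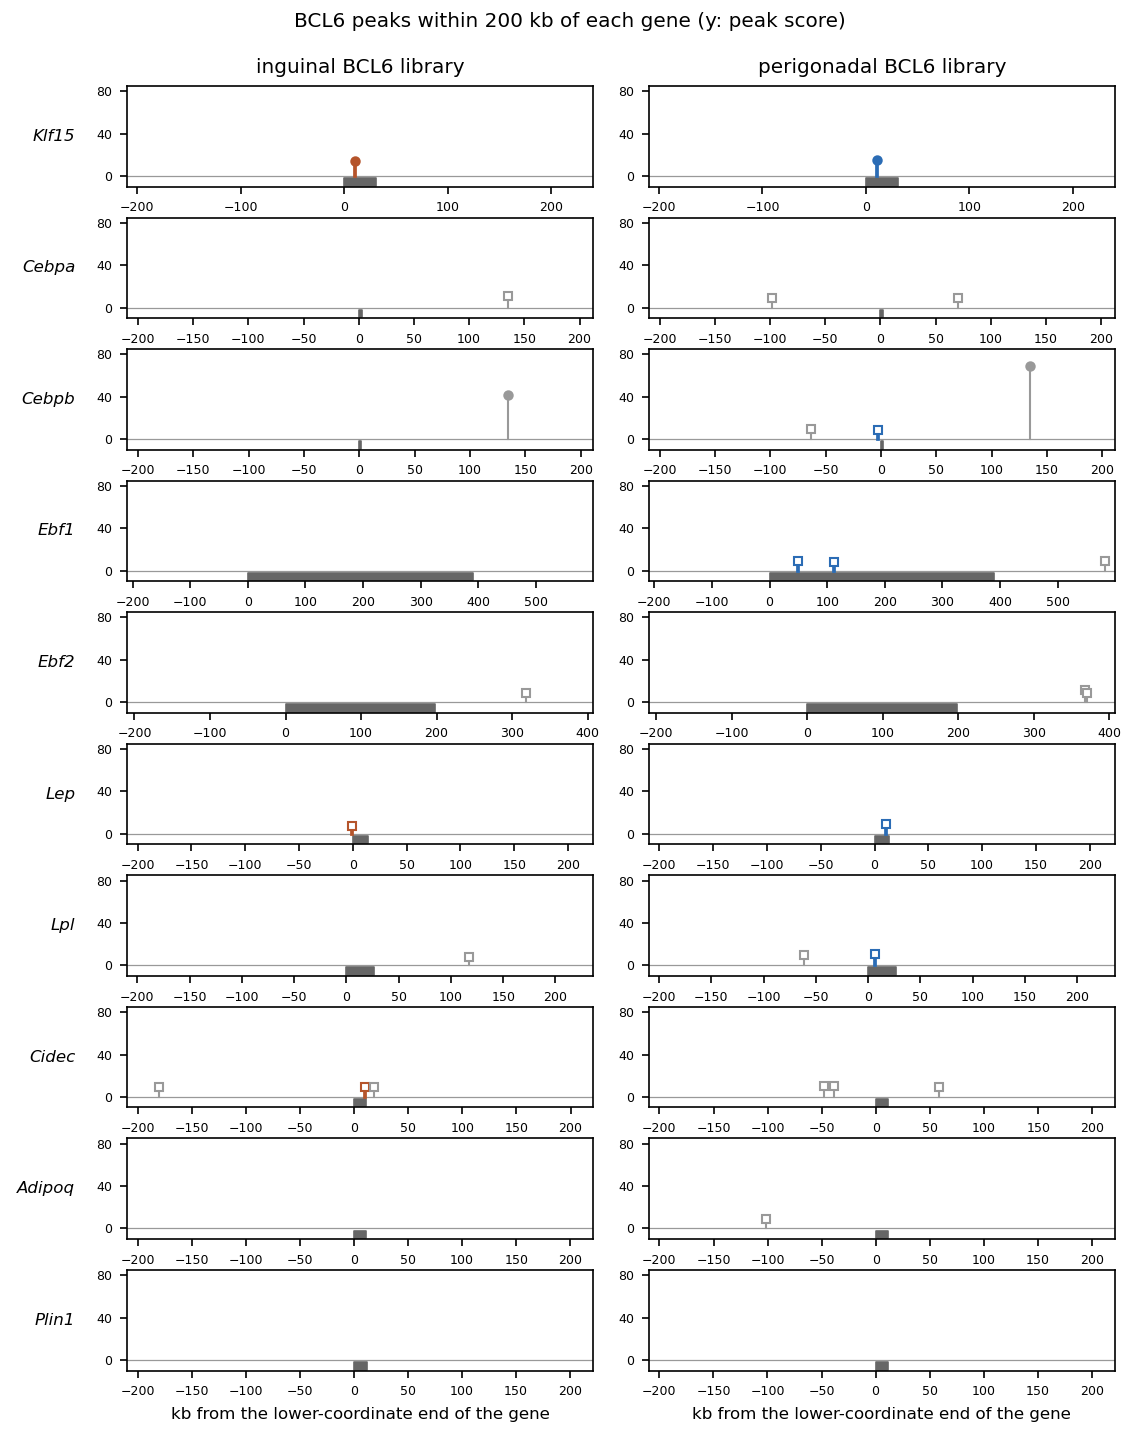
Every BCL6 peak within 200 kb of each of the 10 genes, in the inguinal library (left) and the perigonadal library (right); the x axis is the distance in kb along the chromosome from the gene's lower-coordinate end, the y axis is the peak score, and the dark bar is the gene. Coloured stems are peaks assigned to the gene and grey stems peaks assigned to another gene, with filled circles for shared peaks; the tall grey pair beside Cebpb, at 42.1 and 68.8, is the site assigned to Ptpn1.

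The patterns searched were TTCNNNGAA, TTCCNNGAA and TTCCTAGAA, which are letters that BCL6 and STAT motifs have in common, the palindromic EBF consensus and TTGCGNAA for C/EBP factors, on both strands. Any match to the second or the third is also a match to the first. RefSeq promoter windows of 300 bases were given for 8 of the 10 genes, 10 windows in all, and not for Lpl and Ebf2. Apart from the match in Lep, the 10 windows held none of the patterns. Over all 21263 windows TTCNNNGAA occurred in 7.69%, TTCCNNGAA in 4.66%, TTCCTAGAA in 0.390% and the EBF consensus in 0.959%. With 10 windows these low shares leave little to be seen, and the peaks of Klf15, Ebf1, Cebpb, Lep and Lpl lie outside the windows. Of the member peaks, only 136 bases of the Cidec peak were searched.

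By position the 9 peaks were mostly intronic. Of the 3 inguinal peaks 2 were in introns, as were 5 of the 6 perigonadal ones, against 47.0% and 47.1% of the whole lists. None lay in an annotated repeat, where 21.1% of all inguinal and 24.0% of all perigonadal peaks were found. Of the 3 inguinal peaks 1 was annotated to a promoter, and 0 of the 6 perigonadal ones, against 5.27% and 4.47% of the whole lists. All 3 inguinal and 3 of the 6 perigonadal peaks lay within 10 kb of the promoter, against 25.8% and 26.04% of the whole lists. Counted by gene within that distance, 3 of the 10 genes had an inguinal and 3 of the 10 a perigonadal peak, against 1.81% and 3.98% of all protein-coding genes. The median distance was 0.775 kb for the inguinal and 9.56 kb for the perigonadal member peaks, against 29.2 and 30.96 kb over the lists.

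A wider list of 50 further genes of the same roles, covering other differentiation factors, droplet and caveolar proteins, lipase handling, adipokines and their receptors, had a peak for 7 genes in inguinal and 15 genes in perigonadal fat. These are 14% and 30% of the list, against 6.15% and 12.3% of all protein-coding genes. This list too was chosen with earlier results known, and its peaks lay up to 370.2 kb from the promoter. Among the longest 10% of protein-coding genes the shares were 16.9% and 33.4%, and the lengths of these 50 genes were not compared. Within 10 kb of the promoter the counts were 0 and 4 of 50, against 1.81% and 3.98% of all protein-coding genes. Pparg, the master regulator of adipocyte differentiation, and Fabp4, the adipocyte fatty acid binding protein gene, were among those without a peak.

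Shared peaks of the wider list lay at Adipor2 and Zfp521, 2 of the 50 genes or 4%, against 1.87% of all protein-coding genes. Within 10 kb of the promoter 0 of the 50 had a shared peak, against 0.557%. Adipor2 encodes an adiponectin receptor, and its peak, 18.0 kb downstream of the promoter in a LINE repeat, scored 16.5 in inguinal and 28.2 in perigonadal fat. Zfp521 encodes a zinc finger protein that opposes EBF1 and holds back adipocyte commitment, and its shared peak, 112.4 kb upstream, scored 12 and 19.4. These heights of 22 and 32 tags for Adipor2 and 16 and 22 tags for Zfp521 are close to or above that of Klf15.

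Other peaks of the wider list taken by rank were perigonadal. Lepr, the leptin receptor gene, had a peak of 22.0 located 34.6 kb upstream. Nr1h3, the gene of the oxysterol receptor LXRα, had one of 13.2 in intron 7 of 9, and Tcf7l2, a Wnt pathway factor, one of 13.2 in intron 4 of 11. Klf4, Srebf1, Cavin1 and Cebpg had peaks of 8.82 to 9.70, from 10 or 11 tags. Those of Klf4 lay 79.7 and 135.5 kb upstream of the promoter, that of Srebf1 20.2 kb upstream and that of Cebpg 35.1 kb downstream. By the authors' annotation both of the latter lie inside a transcript, the Srebf1 peak in the 3' UTR in exon 12 of 12 and the Cebpg peak in intron 10 of 14. The pair at Cavin1, a caveolar coat gene, lay on its promoter and in its last exon.

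The lists hold no RNA values, so the identity of the captured nuclei could not be read from marker expression. At marker genes, peaks were assigned to 2 of 6 adipocyte genes in each depot, a list that is made of genes named above. In at least 1 depot the count was 3 of 6, and the share of all protein-coding genes with a peak in either list was not counted. Of 5 preadipocyte and fibroblast, 5 macrophage and 4 lymphocyte markers 0 had a peak in either list. Of 4 endothelial markers 0 had an inguinal peak and 1, Cdh5, a perigonadal peak. With 6.15% and 12.3% of all protein-coding genes having a peak, lists this short would mostly hold 0 or 1 such gene. The adipocyte counts rest on peaks of 10 or 12 tags at genes picked with earlier results known, so they are not read against these shares. A BCL6 peak does not tell whether a gene is expressed, and these counts are no measure of purity.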

How the data were processed

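Inguinal and perigonadal fat was fixed with disuccinimidyl glutarate for 30 minutes and 1% formaldehyde for 10 minutes, per the labels' protocols. The submitters' processing notes name Bowtie 1.2, HOMER and the build mm10. The file headers name a false discovery rate of 0.001 for the inguinal list and no threshold for the perigonadal list, so the limits of calling may differ. The deposited peak score and the deposited focus ratio, a fraction that describes how tags lie around a peak's centre, are the authors' values, as are the distances to the nearest promoter and the annotations. Library depth is unknown, since no source used here states the total behind the scaling of scores. Scores were used only within their own list.

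Tags are scores divided by the list's step, and 100% of scores were whole within 0.1 tag. Intervals are exact Poisson 95% intervals and cover counting error only: the labels record no molecular identifiers, without which reads are not independent molecules. Peaks were shared if they overlapped by at least 1 bp. Genes were matched by Entrez number to the RefSeq table of GRCm38.p6, the assembly whose chromosomes are those of mm10; 1589 of 1593 inguinal and 3178 of 3180 perigonadal names matched. The 10 genes and all lists were chosen with earlier results of these data known. Some genes assigned to peaks within 200 kb of the 10 genes were named and others in that range were not, and the range was set after the peaks were seen. Bcl6 was named from beyond it. Pparg, Fabp4 and Cdh5 were named after their counts were seen. By rule, named genes are the 10 genes and the 10 genes of the wider list with the best-ranked peaks, with ties at 10 tags taken in alphabetical order. An item that this rule takes in is not reported here. The planned search for motifs in peaks needed a genome, which was not used here, so promoter windows were searched. Overlap and step finding were tested on simulated data. Python 3.11.15, pandas 2.3.3 and scipy 1.17.1 were used.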

Additional observations from a re-analysis of the deposited data

How the results depend on the processing

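The assignment distance, the peak height, the length of the lists, repeats, the tie between peak and gene, and the overlap rule were varied. The single shared gene, Klf15, was kept under all 8 alternatives tried for it. Its peaks have 19 and 17 tags, lie 8.78 and 8.74 kb from the promoter outside repeats, and have centres 36 bp apart. These values fixed that outcome beforehand, so it adds no support. Among inguinal genes the count of 3 moved only with peaks of more than 12 tags, to 1 of 10, Klf15, against 2.63% of all protein-coding genes. The other settings could not lower it, because all 3 inguinal peaks lie within 10 kb of the promoter and outside repeats. The list-length setting leaves the inguinal list unchanged. The unmoved inguinal count therefore adds no support either. The perigonadal count of 5 rose to 6 of 10 with any peak in the gene or within 50 kb of its ends, against 24.9%. It became 3 of 10 within 10 kb, against 3.98%. It became 1 of 10 with more than 12 tags, against 3.29%, and to 2 of 10, Klf15 and Lpl, with both lists held to 1785 peaks, against 6.00%. A peak of 10 tags has a counting interval of 4.80 to 18.4 tags, which limits what the low peaks can show. No paired analysis was possible because each group has 1 sample.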

Other observations

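The focus ratio, a deposited value that no comparison used, ran from 0.706 at Cidec to 0.909 at Klf15 in the inguinal library, where the list median was 0.812. In the perigonadal library it ran from 0.737 at Lpl to 0.909 at Cebpb and at the farther Ebf1 peak, where the list median was 0.833. At Klf15 it was 0.909 in inguinal and 0.826 in perigonadal fat.

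Around Cidec, the perigonadal list held 3 peaks within 50 kb of the gene that are assigned to other genes. They lay near Ttll3 and Tada3 with 10.6 each and on the promoter of Creld1 with 9.70, and none was shared.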
